A study of Mus musculus with 6 samples.

Results

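The genes described here are 50 genes of DNA replication, mitosis and cytokinesis. They were measured by bulk RNA-seq in bone marrow cells sorted as megakaryocytes (MKs), the cells that shed platelets. The genes were taken by name from a list that sets no threshold on a measured value. That list was drawn up with earlier results of these data known, and all 50 genes were found among the 16579 genes of the table. Of these, 14 act in G1/S entry and DNA replication and 36 in mitosis and cytokinesis. All 50 passed the filter on low counts that left 12256 genes for testing.

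Both genotypes of the study were compared, with 3 libraries each, from mice that were 3 months old by the study's methods. The controls, Becn1f/f, carried the floxed allele of Becn1, the autophagy gene that encodes Beclin 1, without Cre. In Becn1f/f;Pf4-iCre mice the same floxed allele was combined with a Cre recombinase under the Pf4 promoter, which is active in the megakaryocytic lineage. The cells were sorted from bone marrow by FACS as MKs. The gate for the sequenced cells was not stated beyond that, and nothing in the labels says whether the libraries of a genotype came from separate mice, so p-values measure the spread between these libraries, which may be technical. The question addressed is whether sorted cells of the 2 genotypes differ in the genes by which a cell copies and divides its genome.

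MKs become polyploid by endomitosis: they copy their DNA and enter mitosis, but leave it without completing cell division. They therefore use the replication machinery and much of the mitotic machinery that dividing cells use. Replication starts when Cdc6 and Cdt1 load the Mcm2 to Mcm7 helicase onto DNA and cyclin E drives the cell into S phase. Mitosis is driven by cyclin B and Cdk1, held at the spindle checkpoint by Bub1, Bub1b and Ttk, and released when Cdc20 activates the anaphase-promoting complex. The same genes are high in any dividing blood precursor, and a bulk library does not tell these cells apart.

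Becn1 overlapped between the genotypes. It stood at 128, 109 and 119 CPM (counts scaled to library size, with TMM factors) in the 3 Becn1f/f libraries and at 106, 104 and 110 CPM in the 3 libraries labelled Becn1f/f;Pf4-iCre, called iCre-labelled below. On the log2 scale the iCre-labelled libraries differed by -0.15 (standard error 0.12), with an adjusted p of 0.94 in the edgeR test. These are counts over the whole gene, which do not tell transcripts with and without the floxed part apart. They therefore check the labels only in part. In the paper's RT-qPCR, Becn1 mRNA fell significantly in marrow cells that carry CD41 and did not change in those without it. A loss of Becn1 was thus not evident in these libraries. How much of the RNA came from cells with active Cre was not tested. Total estimated counts were 16467560 to 17156728 per library. Itga2b, the gene of the MK surface protein CD41, stood at 142 to 187 CPM and Pf4 at 2.08 to 6.73 CPM. The whole MK and platelet marker list summed to 287 to 397 CPM, and Itga2b and Itgb3 (79.8 to 143 CPM) made up most of that sum. Other genes of the list were near the floor, such as Gp9 at 1.13 to 1.78 CPM, Gp5 at 1.69 to 2.48 CPM and Clec1b at 0.784 to 1.94 CPM. Markers of neutrophil progenitors summed to far more, 3275 to 5811 CPM, with Mpo, the gene of the granule enzyme myeloperoxidase, at 2210 to 4001 CPM. Markers of late neutrophils summed to 8548 to 14510 CPM, and those of mast cells, basophils and eosinophils to 4426 to 10910 CPM. RNA of genes of these other marrow cells was thus abundant in libraries labelled as MKs. The levels of the replication and mitosis genes therefore cannot be assigned to MKs.

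The replication and mitosis genes were among the higher genes of every library. Levels between genes were compared in FPKM, which scales fragment counts by transcript length and by library size. The median over the 50 genes of each gene's median FPKM was 55.8, against 5.63 over all genes of the table, which include those that failed the count filter. Within a library the median was 49.6 to 62.7 FPKM over the 50 genes and 11.7 to 12.6 FPKM over the 12256 tested genes. Of the 50 genes, 48 were above 10 FPKM in every library. Values in a single library ran from 7.81 FPKM for Ccne2 to 387 FPKM for Pcna. The lowest estimated count of any of them in any library was 224, for Gins2, so that counting error was small beside the spread between libraries. Together the 50 genes took 0.851% to 1% of all estimated counts.

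**Figure D1:**
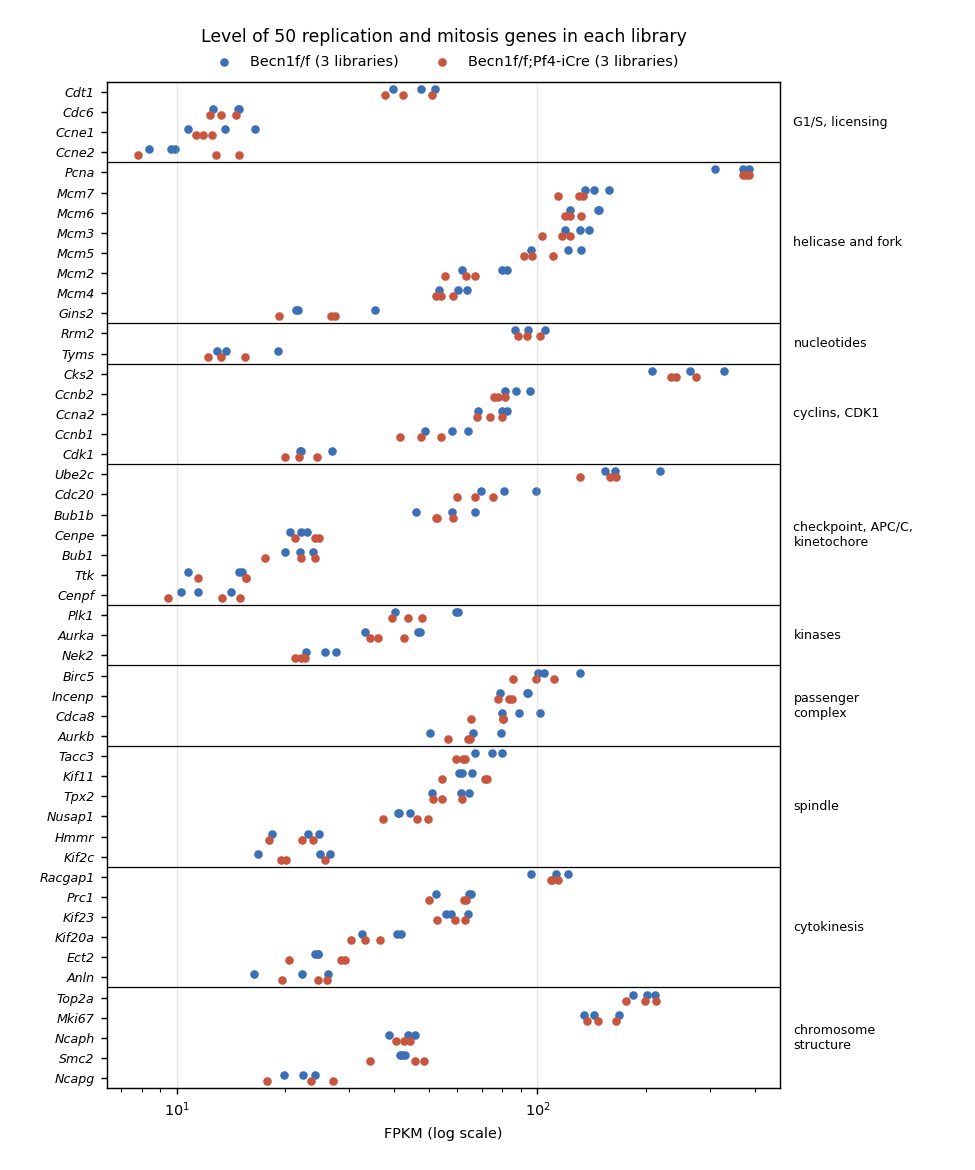
FPKM (log axis) of each of the 50 genes in the 3 Becn1f/f libraries (blue) and the 3 Becn1f/f;Pf4-iCre libraries (red), grouped by role and ordered by level. Pcna is highest and Ccne2 lowest, and the points of the 2 genotypes lie among each other for most genes.

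Pcna, the sliding clamp of the replication fork, was the highest. It stood at 386, 371 and 310 FPKM in the Becn1f/f libraries and at 371, 377 and 387 FPKM in the iCre-labelled ones. Cks2, a small protein that binds Cdk1, followed at 329, 265 and 207 FPKM against 235, 242 and 275 FPKM. Top2a, the topoisomerase that untangles sister chromatids, stood at 184, 201 and 212 FPKM against 176, 199 and 213 FPKM. The genotypes overlapped in each of these 3 genes. Pcna and Cks2 overlapped in level, by 1 library, and so did Cks2 and Top2a. Ube2c, the ubiquitin-conjugating enzyme of the anaphase-promoting complex, was next at 164, 218 and 154 FPKM against 159, 131 and 165 FPKM. Mki67, the gene of the proliferation marker Ki-67, stood at 134, 144 and 168 FPKM against 137, 147 and 165 FPKM. The ranges of Ube2c and Mki67 overlapped, so their order was not set beyond the spread. Among the Mcm genes the median FPKM fell from 135 for Mcm7 through 128 for Mcm6, 121 for Mcm3 and 103 for Mcm5 to 65.3 for Mcm2 and 56.2 for Mcm4.

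The highest genes of the other role groups followed. Racgap1, part of the complex that organizes the central spindle, stood at 96.0, 122 and 113 FPKM against 114, 109 and 110 FPKM. Birc5, the chromosomal passenger protein survivin, stood at 104, 131 and 100 FPKM against 99.0, 85.8 and 111 FPKM. Rrm2, a subunit of the enzyme that makes deoxynucleotides, stood at 86.9, 105 and 94.3 FPKM against 88.4, 93.6 and 102 FPKM. In these 3 genes too the genotypes overlapped. Cdt1, a licensing factor, stood at 39.7, 51.9 and 47.5 FPKM against 51.1, 42.4 and 37.7 FPKM, and Plk1, a kinase needed for the spindle and for mitotic exit, at 40.2, 59.4 and 60.4 FPKM against 43.7, 39.6 and 47.8 FPKM. The cyclin E genes were at the low end, with a median of 12.2 FPKM for Ccne1 and 9.76 FPKM for Ccne2.

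The promoters of the replication genes and of the mitosis genes differed in the letters they hold. In mammals, genes of mitosis are commonly controlled through a CHR element together with CCAAT boxes, bound by the DREAM and MuvB complexes and by NF-Y, and genes of the G1/S transition through E2F sites. RefSeq promoters of GRCm38.p6, each from 250 bases before to 50 bases after the transcription start, were matched by symbol for 42 of the 50 genes, 3 of them with 2 starts. No promoter was analysed for Ccne2, Gins2, Mcm4, Ccna2, Tpx2, Aurkb, Incenp and Kif20a. The letters searched, on both strands, were TTTGAA for the CHR element, CCAAT for the NF-Y box and TTTGGCGC, TTTCCCGC, TTTGGCGG, TTTCCCGG, TTTCGCGC and TTTGCGCC for E2F, of which neighbouring matches may overlap. TTTGAA was found in 22 of 31 mitosis promoters (71%) and in 1 of 11 replication promoters (9.09%), against 14.8% of the promoters of all tested genes. An E2F run was found in 6 of 11 replication promoters (54.5%) and in 4 of 31 mitosis promoters (12.9%), against 8.06% of all tested genes. CCAAT stood in 7 of 11 and 25 of 31 promoters, against 43.7%. TTTGAA and CCAAT occurred together in 64.5% of the mitosis promoters and in 7.48% of those of all tested genes. These matches are letters in a window, not measured binding.

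The promoters of 7 genes are shown, chosen after the matches were seen, for mitosis genes with TTTGAA and for Mcm genes with E2F runs. Each gives the 200 bases before the start, 5′ to 3′, in GRCm38.p6, with every match to the letters above in capitals on either strand (TTCAAA and ATTGG are TTTGAA and CCAAT read from the other strand).
Cdc20, chr4:118437344-118437543, - strand: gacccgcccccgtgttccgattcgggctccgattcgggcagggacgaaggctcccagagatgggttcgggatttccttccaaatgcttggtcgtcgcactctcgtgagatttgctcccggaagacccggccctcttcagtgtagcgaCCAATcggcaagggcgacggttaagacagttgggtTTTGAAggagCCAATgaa
Ube2c, chr2:164769729-164769928, + strand: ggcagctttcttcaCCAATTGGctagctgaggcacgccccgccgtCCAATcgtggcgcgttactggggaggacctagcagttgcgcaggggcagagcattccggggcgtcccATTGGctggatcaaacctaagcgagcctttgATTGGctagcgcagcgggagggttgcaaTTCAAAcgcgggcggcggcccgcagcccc
Top2a, chr11:99024190-99024389, - strand: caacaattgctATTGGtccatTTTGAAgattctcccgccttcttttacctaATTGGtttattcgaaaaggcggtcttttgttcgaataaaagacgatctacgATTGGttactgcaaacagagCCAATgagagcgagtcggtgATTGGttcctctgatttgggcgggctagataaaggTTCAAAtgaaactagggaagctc
Cdk1, chr10:69352913-69353112, - strand: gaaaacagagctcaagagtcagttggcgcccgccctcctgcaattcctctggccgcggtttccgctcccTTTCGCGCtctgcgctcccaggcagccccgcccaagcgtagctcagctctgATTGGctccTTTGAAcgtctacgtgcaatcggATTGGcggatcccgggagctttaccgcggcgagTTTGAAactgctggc
Mcm5, chr8:75109309-75109508, + strand: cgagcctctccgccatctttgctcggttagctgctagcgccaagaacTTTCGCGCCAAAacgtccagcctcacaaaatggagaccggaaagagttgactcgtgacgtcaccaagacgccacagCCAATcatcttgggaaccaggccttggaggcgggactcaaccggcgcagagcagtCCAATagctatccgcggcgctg
Mcm6, chr1:128359706-128359905, - strand: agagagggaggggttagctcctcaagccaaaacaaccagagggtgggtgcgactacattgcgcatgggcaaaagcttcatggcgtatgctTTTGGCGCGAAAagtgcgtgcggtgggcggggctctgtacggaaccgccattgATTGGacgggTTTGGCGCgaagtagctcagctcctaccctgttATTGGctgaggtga
Mcm7, chr5:138171884-138172083, - strand: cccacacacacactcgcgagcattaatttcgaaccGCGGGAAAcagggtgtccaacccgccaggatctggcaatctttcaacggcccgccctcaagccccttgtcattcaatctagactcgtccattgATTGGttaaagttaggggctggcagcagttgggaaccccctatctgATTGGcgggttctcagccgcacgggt
In Cdc20, Ube2c, Top2a and Cdk1 the last TTTGAA lies within 30 bases of the start, with CCAAT letters before it. Mcm5, Mcm6 and Mcm7, picked for their E2F runs, hold CCAAT but no TTTGAA in these bases. Mcm2 was the 1 replication gene with TTTGAA and held no E2F run. Cdk1, which drives mitosis, holds both TTTGAA and an E2F run. The median log2 fold change was -0.015 over 22 mitosis genes with TTTGAA and -0.091 over 9 without it, and -0.15 over 6 replication genes with an E2F run and -0.13 over 5 without.

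No gene of the 50 passed the test between the genotypes. At an unadjusted P under 0.05 in the edgeR quasi-likelihood test, 0 were lower and 0 were higher in the iCre-labelled libraries, against 2.39% lower and 3.92% higher of all 12256 genes tested. The study applied cutoffs of a fold of 1.5 and P under 0.05 to DESeq2. With those cutoffs on the edgeR test, 0 of the 50 were lower and 0 higher, against 0.938% and 1.36% of all genes. None had an adjusted p under 0.05, against 0.0408% of all genes, and their adjusted p ran from 0.85 to 0.999. DESeq2 also called 0 of them at an unadjusted P under 0.05. Over the 50 genes the median log2 fold change was -0.057, against -0.021 over all genes tested, and 34 of 50 were negative, against 54.5% of all genes. In a bulk sample, fewer cells of a type and less RNA per cell cannot be told apart.

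The intervals were narrow enough to bound the difference in the mixed RNA of these libraries. They did not bound a difference within MKs alone. The 95% interval of the fold change lay inside 1.5-fold in either direction for 46 of the 50 genes and inside 2-fold for all 50. Among the 7418 tested genes with a mean between 18.3 and 1392 CPM, the range of the 50 genes, 80.8% had an interval inside 1.5-fold. These genes share the range of the 50 but were not matched to them in abundance. The exceptions were Cdc20, Plk1 and Ube2c, whose lower bounds were -0.63, -0.61 and -0.59 on the log2 scale, and Ccne2, whose upper bound was 0.78. The median within-genotype SD of log2 CPM was 0.17 over the 50 genes and 0.17 over the genes in that range. The median absolute log2 difference was 0.092 and 0.11 in the same sets.

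**Figure D2:**
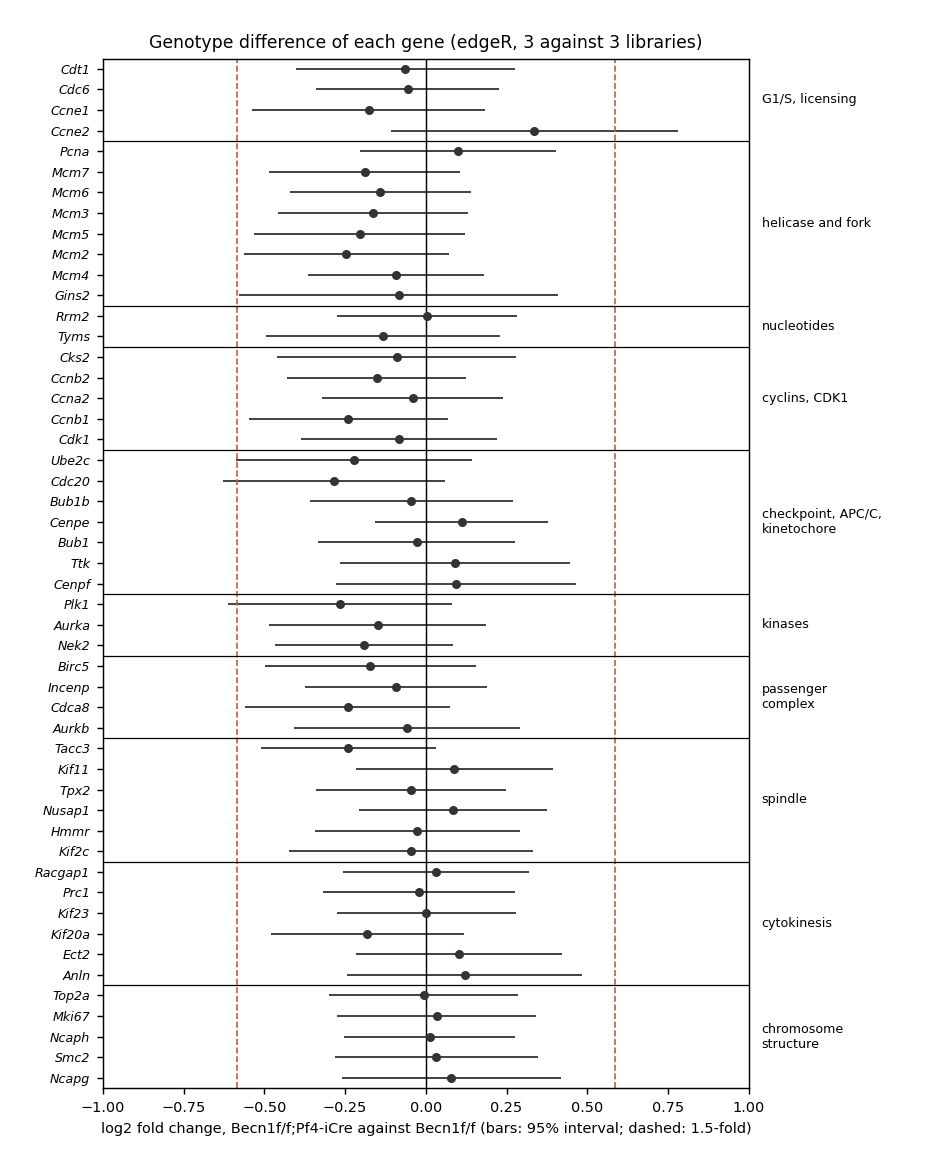
Log2 fold change of each gene, Becn1f/f;Pf4-iCre against Becn1f/f (edgeR, 3 libraries each), with its 95% interval, grouped by role. All 50 intervals include 0, and those of Cdc20, Plk1, Ube2c and Ccne2 cross a dashed line at 1.5-fold.

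In the G1/S and replication set, 11 of 14 genes had a negative log2 fold change, with a median of -0.11. Their summed level was 2431, 2798 and 2535 CPM in the Becn1f/f libraries and 2529, 2224 and 2444 CPM in the iCre-labelled ones (2588 ± 189 against 2399 ± 157, SD, n = 3 each), and the groups overlapped. Most of that sum was the helicase. Mcm2 to Mcm7 summed to 1654, 1953 and 1829 CPM against 1725, 1465 and 1630 CPM. All 6 Mcm genes had negative values. Mcm2 stood at 194, 241 and 243 CPM against 211, 168 and 193 CPM (log2 fold change -0.25, standard error 0.15, adjusted p = 0.88 in the edgeR test). Mcm5 stood at 308, 407 and 367 CPM against 355, 283 and 300 CPM (-0.21, standard error 0.15). The groups overlapped in both. Mcm7 stood at 293, 329 and 293 CPM against 292, 237 and 273 CPM, so its groups parted, by less than 1 CPM (-0.19, standard error 0.14). Pcna, which travels with the same fork, went the other way at 371, 349 and 283 CPM against 365, 349 and 361 CPM (0.099, standard error 0.14). The 6 Mcm genes act as 1 ring and were read in the same libraries, so they are not separate evidence of a direction.

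Among the other genes of the replication set, the cyclin E genes differed in sign. Ccne2 had the highest log2 fold change of the 50 genes, with 25.96, 25.8 and 20.8 CPM against 21.1, 32.03 and 38.5 CPM (0.34, standard error 0.20, adjusted p = 0.88 in the edgeR test). Of the iCre-labelled libraries 1 lay within the Becn1f/f range and the others above it. Its paralog Ccne1 had a value of -0.18 (standard error 0.17). The licensing factors Cdc6 and Cdt1 had -0.056 and -0.064, and Gins2, a helicase partner with the widest spread of the 50 (within-genotype SD 0.38 on the log2 scale), had -0.084. Of the genes of nucleotide supply, Rrm2 had 0.0035 and Tyms, thymidylate synthase, -0.13. Ccne2, Ccna2, Kif20a, Ncapg and Prc1 carried estimated counts that were not whole numbers in all 6 libraries, Tyms in 5, Hmmr in 3 and Aurka and Nusap1 in 1, as happens when reads are shared out between sequences, and Tyms, Pcna and Ccnb1 have annotated pseudogenes, so the values of all these genes are less certain.

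In the mitosis and cytokinesis set, 23 of 36 genes were negative, with a median of -0.043. Their summed level was 6370, 7035 and 6974 CPM in the Becn1f/f libraries and 6325, 6535 and 7181 CPM in the iCre-labelled ones (6793 ± 368 against 6680 ± 446, SD, n = 3 each). The highest library of all was an iCre-labelled one. The mitotic cyclins and their kinase were all negative in this fit, and Cdk1, Cks2 and Ccna2 each changed sign in 1 of 18 alternative fits. Ccnb1, cyclin B1, stood at 100, 127 and 112 CPM against 86.2, 93.6 and 108 CPM (-0.24, standard error 0.14, adjusted p = 0.88 in the edgeR test). The range from 100 to 108 CPM was shared. Ccnb2, Cks2, Cdk1 and Ccna2 had -0.15, -0.091, -0.083 and -0.041.

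The genes that hold or release the metaphase plate had values of both signs, and all their intervals included 0. Cdc20 had the lowest log2 fold change of the 50 genes, with 105, 144 and 115 CPM against 115, 86.4 and 97.6 CPM (-0.28, standard error 0.16, adjusted p = 0.88 in the edgeR test). Its groups overlapped, since one iCre-labelled library lay level with the second-highest Becn1f/f value. Ube2c, its partner in the anaphase-promoting complex, had -0.22 (standard error 0.17). The checkpoint genes Bub1 and Bub1b had -0.029 and -0.045 and Ttk 0.091, and the kinetochore genes Cenpe and Cenpf had 0.11 and 0.093.

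Of the kinases that act on centrosomes and spindle, Plk1, Nek2 and Aurka had negative values, whereas the checkpoint kinase Ttk had the positive value given above. Plk1 stood at 78.4, 111 and 111 CPM against 85.8, 74.1 and 90.2 CPM (-0.27, standard error 0.16, adjusted p = 0.88 in the edgeR test), and the lowest Becn1f/f library lay within the other group. Nek2, a kinase that parts the centrosomes, stood at 67.7, 78.9 and 72.0 CPM against 67.6, 60.7 and 63.3 CPM (-0.19, standard error 0.13), groups that parted by less than 1 CPM. Aurka, the centrosomal aurora kinase, had -0.15. The genes of the chromosomal passenger complex were all negative in this fit as well, and Aurkb changed sign in 4 of 18 alternative fits. They were read in the same libraries, so they are not separate evidence of a direction. Cdca8, which encodes its subunit borealin, stood at 107, 132 and 113 CPM against 110, 84.1 and 104 CPM (-0.24, standard error 0.14, adjusted p = 0.88 in the edgeR test). Birc5, Incenp and Aurkb had -0.17, -0.092 and -0.058.

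Tacc3, which steadies spindle microtubules, had the smallest P of the 50 genes. It stood at 146, 165 and 151 CPM against 136, 123 and 132 CPM, so that every iCre-labelled library lay below every Becn1f/f library. The log2 fold change was -0.24 (standard error 0.12, P = 0.077, adjusted p = 0.85 in the edgeR test), and the exact permutation test gave a two-sided p of 0.1, the smallest that 3 against 3 libraries allow. Tacc3, Mcm7 and Nek2 were the only 3 of the 50 genes (6%) whose genotypes did not overlap on the low side, against 5.18% of all genes tested, and 0 parted on the high side, against 5.42%. A share of 6% is near that background. The other spindle genes had values near 0, with 0.088 for Kif11, 0.084 for Nusap1, -0.027 for Hmmr, -0.045 for Kif2c and -0.045 for Tpx2.

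The genes of cytokinesis and of chromosome structure, whose products act on the cell's last step of division and on the chromosomes, centred near 0. Cytokinesis is the step that endomitotic MKs do not complete. Racgap1 stood at 260, 317 and 287 CPM against 311, 284 and 288 CPM (0.031, standard error 0.13). Ect2, the exchange factor that turns on RhoA at the cleavage furrow, had 0.10 and Anln, the furrow scaffold anillin, 0.12. Kif23 had 0.0016, Prc1 -0.022 and Kif20a -0.18. Summed over the 6 cytokinesis genes the iCre-labelled mean was 100.5% of the Becn1f/f mean (928 ± 72.5 CPM in Becn1f/f against 933 ± 40.5 CPM, SD, n = 3 each). Of the chromosome structure genes, Mki67 had 0.033 and Top2a -0.0071, with intervals from -0.28 to 0.34 and from -0.30 to 0.28. The condensin genes Ncaph, Smc2 and Ncapg had 0.012, 0.032 and 0.079.

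Values also varied between the libraries of a genotype. Becn1f/f replicate 2 held the highest value of the 6 for 29 of the 50 genes, and the iCre-labelled replicate 3 for 12. The lowest value lay in the iCre-labelled replicate 2 for 21 genes, in replicate 1 of the same genotype for 13 and in Becn1f/f replicate 1 for 11. The mitosis genes summed to 2.62, 2.51 and 2.75 times the replication genes in the Becn1f/f libraries and to 2.501, 2.94 and 2.94 times in the iCre-labelled ones, ranges that overlap.

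**Figure D3:**
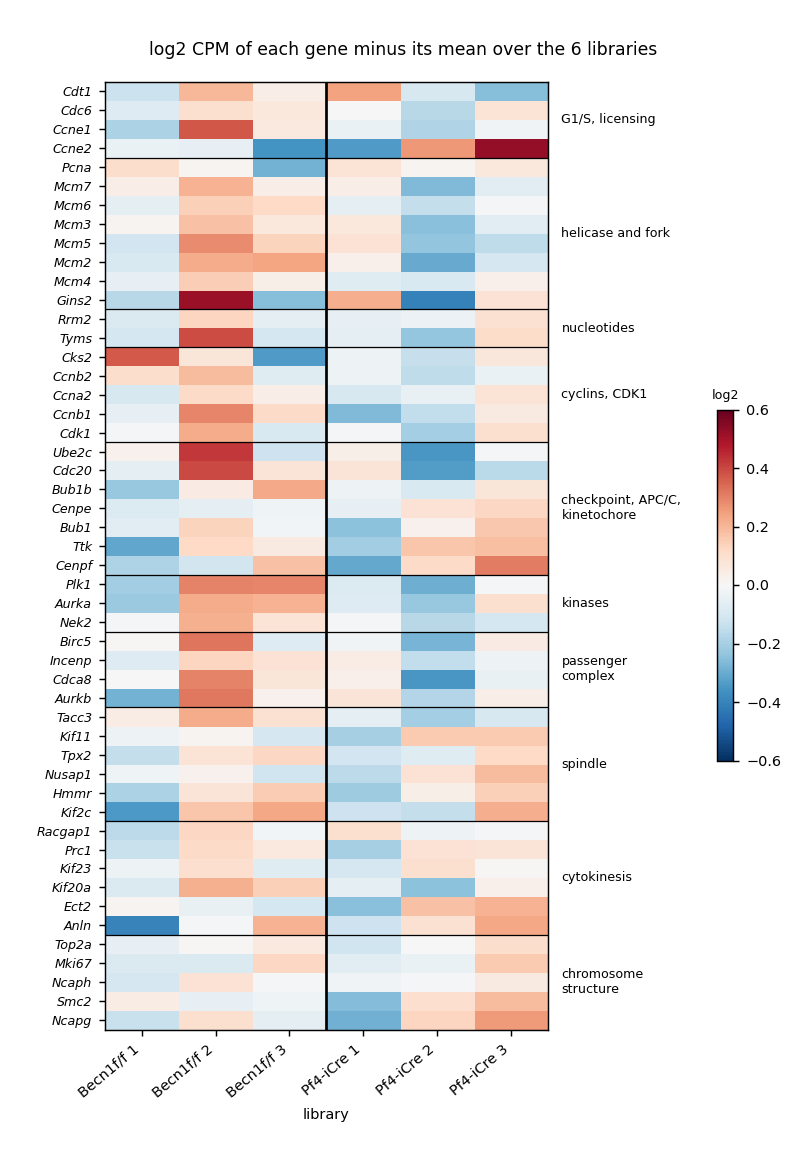
Heat map of log2 CPM minus each gene's mean over the 6 libraries, with genes in rows by role and libraries in columns (red above, blue below the mean; Pf4-iCre stands for Becn1f/f;Pf4-iCre). Becn1f/f replicate 2 is red for most genes, and the iCre-labelled replicate 2 is blue for the Mcm genes, Cdc20, Ube2c, Plk1 and Cdca8.

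Single libraries decided which genes came near the threshold. Without Becn1f/f replicate 1, 4 genes were lower at P under 0.05: Plk1 (-0.41), Cdc20 (-0.37), Mcm2 (-0.34) and Ccnb1 (-0.31), with 3.59% of all genes lower in that fit. Without the iCre-labelled replicate 1, Cdc20 was lower (-0.40) and Ccne2 higher (0.54), 1 of 50 each way, with 2.92% of all genes lower and 5.22% higher in that fit. Without Becn1f/f replicate 2 the median of the 50 genes was 0.0006 and 25 of 50 were negative. No gene of the 50 had an adjusted p under 0.05 in any of these edgeR fits.

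The log2 fold changes varied with the base composition of the transcripts. GC content was taken from the longest GENCODE M21 transcript (GRCm38) of each gene and ran from 36.3% for Ccne2 to 58.8% for Cdt1, with medians of 50.7% for the replication genes, 47.0% for the mitosis genes and 50.1% over all tested genes. Across the 50 genes, Spearman's rho between GC content and log2 fold change was -0.74. It was -0.58 over the replication genes, -0.74 over the mitosis genes and -0.35 over 11953 tested genes. Of the 25 genes with the higher GC content 23 were negative, with a median of -0.15, and of the other 25 genes 11 were negative, with a median of 0.0035. These points share their 6 libraries and are not independent. The trend differed in sign between libraries of the same genotype. For a library's deviation from the mean of all 6, rho with GC content over the 50 genes was -0.12, 0.72 and 0.36 in the Becn1f/f libraries and 0.77, -0.84 and -0.78 in the iCre-labelled ones, and over all tested genes it had the same sign in each library. Transcript length went with the fold change at a rho of 0.44.

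**Figure D4:**
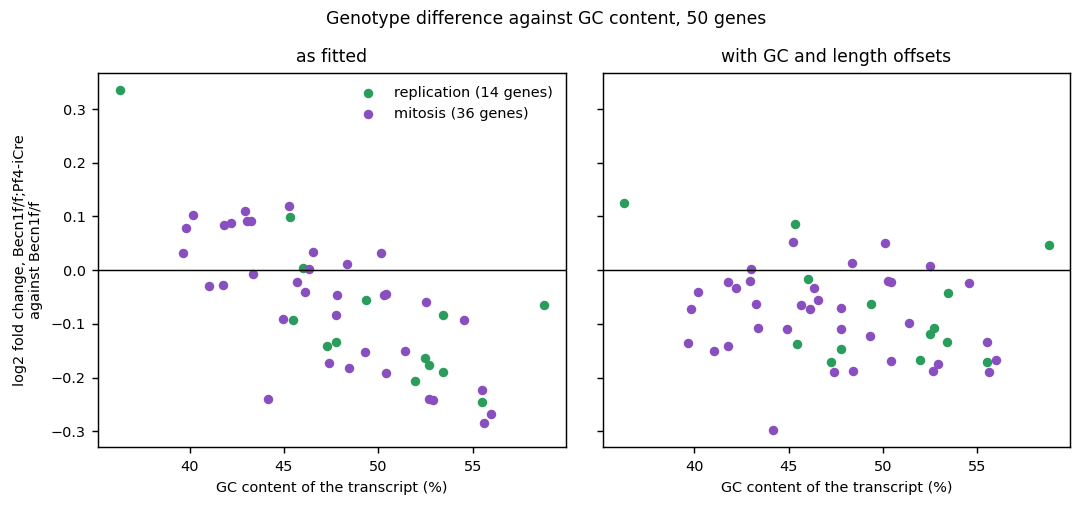
Log2 fold change of the 50 genes (y axis) against GC content of the transcript in percent (x axis), as fitted (left) and with GC and length offsets (right), for replication (green) and mitosis (purple) genes. The downward slope on the left (rho -0.74) is flatter on the right (rho -0.23).

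With offsets for GC content and length in the same edgeR model, rho over the 50 genes was -0.23 and over all genes 0.026. The log2 fold changes ran from -0.30 to 0.13, against -0.28 to 0.34 as fitted, the upper end being Ccne2 in both. Their median absolute size was 0.10, against 0.092 as fitted, and all 50 intervals lay inside 1.5-fold. More of the genes were negative, 42 of 50 against 54.0% of all genes, with a median of -0.086 against -0.016 over all genes. The median was -0.11 over the replication genes and -0.073 over the mitosis genes. Ccnb1 was the 1 gene at P under 0.05 (-0.30, adjusted p = 0.59 in the edgeR test), against 3.02% of all genes lower in that fit. The offsets were fitted to the GC and length trends of each library, so a lower rho follows from the fit and is not a separate result. What set the trend in each library was not tested.

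Other genes of the cell cycle gave few calls. Of 47 further replication genes, such as the origin recognition, clamp loader and polymerase genes, 0 were lower and 0 higher at P under 0.05 in the edgeR test, and their log2 fold changes centred on -0.066. The smallest P among them was that of Rfc5, a clamp loader subunit (-0.25, adjusted p = 0.86 in the edgeR test). Of 69 further mitosis genes 3 were lower and 0 higher, with a median of -0.014. They were Cdc25b, a phosphatase that activates Cdk1 (-0.37), Sapcd2, which helps to orient the spindle (-0.39), and Tubb4b, a beta-tubulin (-0.34). None of the 3 reached a fold of 1.5, and their adjusted p values in the edgeR test were 0.70, 0.74 and 0.78. The share of all genes lower at P under 0.05 was 2.39%.

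Of 45 tested genes that start, stop or brake the cycle, 0 were lower and 2 were higher, with a median of 0.039. The share of all genes higher at P under 0.05 was 3.92%, so that 2 of 45 is near the background. Lin52, a subunit of the MuvB complex, stood at 10.97, 11.3 and 10.3 CPM against 13.7, 15.6 and 15.5 CPM (0.46, adjusted p = 0.50 in the edgeR test), and its groups did not overlap. Rbl1, the pocket protein p107 that sits in the DREAM complex, stood at 108, 117 and 126 CPM against 123, 166 and 151 CPM (0.32, adjusted p = 0.78 in the edgeR test). Mybl2, which joins MuvB to switch on mitotic genes, had -0.28 (adjusted p = 0.855 in the edgeR test). Of 22 genes tied to MK polyploidization 1 was lower and 0 higher, against 2.39% lower of all genes. This list overlaps the others, since it holds Ccne1, Ccne2, Aurkb, Birc5 and Ect2 of the 50 genes and brake genes such as Cdkn1a. The lower gene was Gata1, the transcription factor of the MK and erythroid lineages, at 21.9, 15.9 and 19.6 CPM against 13.8, 13.5 and 14.9 CPM (-0.44, adjusted p = 0.60 in the edgeR test). Cdkn1a, the cyclin-dependent kinase inhibitor p21, had 0.38, with 272, 230 and 128 CPM against 387, 245 and 189 CPM that overlapped.

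Some lists of markers of other marrow cells held more genes at an unadjusted P under 0.05 than the 2.39% lower and 3.92% higher of all genes, but after adjustment over all genes (edgeR) no marker of any list passed 0.05, the smallest adjusted p being 0.057 for Mrc1. Of 19 tested erythroid markers 14 were lower at P under 0.05 and 0 higher, with log2 fold changes centred on -0.64 and a sum of 539 to 849 CPM against 418 to 541 CPM. Their defining factor Klf1 was low in level, at 0.42 to 1.78 CPM. Its groups did not overlap, with a log2 fold change of -0.94 (adjusted p = 0.71 in the edgeR test). Of 10 neutrophil progenitor markers 8 were lower and 0 higher (-0.52), with sums of 5107 to 5811 CPM against 3275 to 4709 CPM that did not overlap. Of 14 late neutrophil markers 3 were lower (-0.39), with sums of 10040 to 14510 CPM against 8548 to 11010 CPM. Macrophage markers went the other way, with 4 of 12 higher (0.36), 0 lower and sums of 816 to 874 CPM against 888 to 1096 CPM, while Adgre1, the gene of their surface protein F4/80, had 0.0015. Csf1r was the largest part of that sum, at 364, 483 and 444 CPM against 588, 515 and 444 CPM that overlapped. Higher genes such as Mrc1, Cd163 and C1qc were low, at 7.42 to 27.0, 4.26 to 8.49 and 1.07 to 5.05 CPM, so they added little to the sum. MK and platelet markers had 1 of 14 lower, which was Pf4 (-1.01), and sums of 287 to 397 CPM against 300 to 379 CPM. Of 12 B lineage markers 1 was lower and of 8 stem and progenitor markers 1 was higher. The lists of plasma cells, of T and NK cells and of mast cells, basophils and eosinophils gave 0 in either direction, and that of endothelial and stromal cells 1 lower of 8. Neutrophil progenitors and erythroid precursors divide, and the part that their RNA had in the levels of the 50 genes was not tested.

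**Figure D5:**
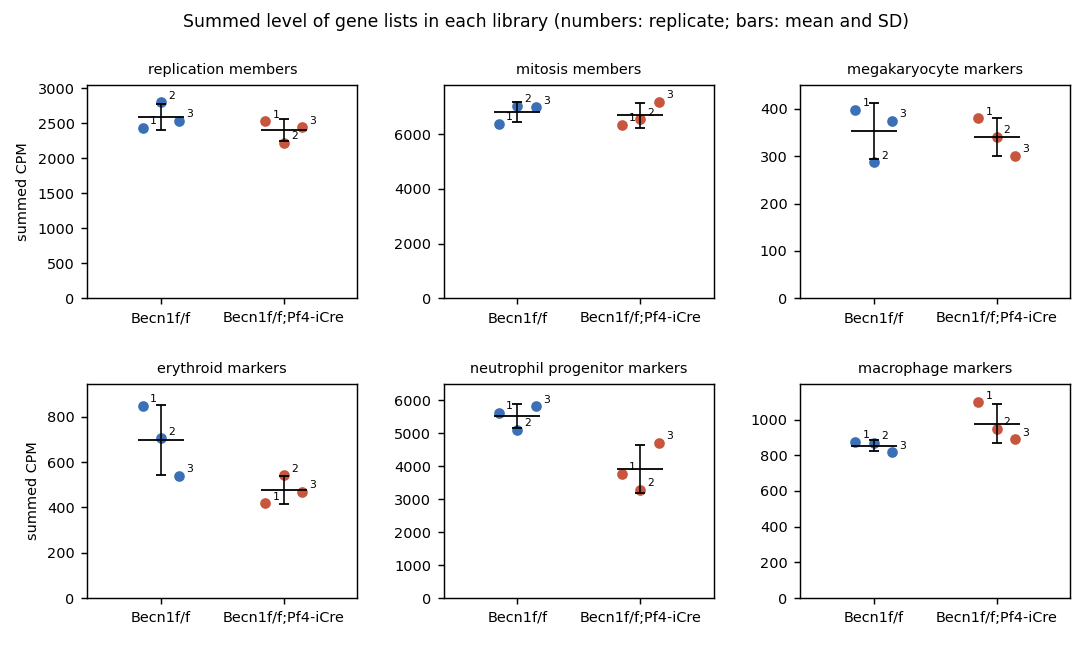
Summed CPM of the replication genes, the mitosis genes and 4 marker lists in each library, with the mean and SD of 3 libraries per genotype (y axes start at 0). The replication and mitosis sums overlap between the genotypes, whereas those of neutrophil progenitor and macrophage markers do not.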

How the data were processed

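Libraries were made from bone marrow cells sorted by FACS as MKs and sequenced on the DNBSEQ platform by the study. The submitters' processing notes name HISAT, Bowtie2 and the build GRCm39 (mm39). The authors deposited 1 table of estimated counts per gene, which need not be whole numbers, and the authors deposited FPKM values beside them. Of its columns, 16 per-sample columns and 8 group means were not used. Among those 16 columns, 4 belong to a further knockout library that has no sample in the labels.

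Estimated counts were rounded and tested with edgeR 4.0.16 (R 4.3.3): TMM, filterByExpr (minimum count 10, minimum total 15), quasi-likelihood F test on genotype, Benjamini-Hochberg adjustment over 12256 genes. DESeq2 1.42.0, limma 3.58.1, other scalings and filters, a replicate block, GC and length offsets (loess span 0.5) and leaving out each library were alternatives. FPKM fits used log2(value + 1) or log2(value + 0.1). On simulated data for the genotype comparison (12158 genes), 132 of 136 genes changed at least 2-fold were found, and 94.8% of 95% intervals held the true value. The simulated counts were drawn independently and held no GC trend, so these shares need not hold for the real libraries. How often smaller changes were found is not given here. Replicates were checked pairwise and no pair agreed within sampling noise. Values in every library are given for the 10 genes with the smallest P and the highest gene by FPKM of each role group; a few further genes of the other lists were added by smallest P. The members and the lists were chosen with earlier results of these data known.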

Additional observations from a re-analysis of the deposited data

How the results depend on the processing

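The count of genes lower at P under 0.05 was 0 as reported. It was 1 with the GC and length correction (Ccnb1), 1 with that correction and the replicate block (Ccnb1) and 1 with limma on log2(FPKM + 1) (Tacc3), and it ranged from 0 to 4 when any single library was left out. The count of genes higher was 0 as reported and ranged from 0 to 1 in the same way. The cause of these changes was not tested. No gene of the 50 passed an adjusted p under 0.05 in any of 18 alternative fits. The median log2 fold change stayed within 1 SD between libraries of -0.057, at -0.12 to 0.0006. Of the 50 genes, 20 kept their sign in all 18 fits and 30 changed it in 1 or more.

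The genotypes share replicate numbers. Same-numbered libraries deviated together with correlations of 0.068, -0.279 and 0.201 over all tested genes, so the numbers were not taken as pairs, and not every library correlated best with its own number. With the replicate block, 0 of the 50 genes were lower and 0 higher, their median was -0.051, and 19 of all genes had an adjusted p under 0.05 against 5 without it. DESeq2 gave 77 such genes, the test without a filter on low counts 23, the GC and length correction 8 (35 with the block), limma-voom 5, upper-quartile scaling 8, limma on log2(FPKM + 1) 0 and the fits without 1 library 0 to 27.

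With 3 libraries a genotype, the 95% interval of a gene reached a median of 0.31 to either side on the log2 scale.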
